A study of Mus musculus with 19 samples.

Results

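The ERVL and ERVL-MaLR families are old groups of endogenous retrovirus-like elements of the class LTR, and they were taken here as every repeat subfamily of that class whose family name starts with ERVL. The rule gives 203 of the 1067 repeat subfamilies counted: 99 of family ERVL, 102 of family ERVL-MaLR and 2 (LTR87 and LTR89) of the family written "ERVL?". They held 7.07% of all reads assigned to repeats, 5.46% in ERVL-MaLR and 1.60% in ERVL. The data are 19 RNA sequencing libraries of hippocampus and cortex homogenate from C57BL/6 mice aged 3 months, each with reads counted per gene and per repeat subfamily. On postnatal day 0 each pup received 2 µl of AAV1, an adeno-associated virus, into each cerebral ventricle. The vector carried GFP fused to 50 proline-arginine repeats (poly(PR), n = 7, 4 female and 3 male), GFP fused to 100 glycine-arginine repeats (poly(GR), n = 4, 3 female and 1 male), or GFP alone (4 controls matched by harvest to each, 3 female and 1 male for poly(PR), 2 and 2 for poly(GR)). All 19 animals therefore carried virus and GFP, and none was left without injection. Poly(PR) and poly(GR) are dipeptide repeat proteins translated from the expanded C9orf72 repeat that causes inherited frontotemporal dementia and amyotrophic lateral sclerosis. The labels do not say which cells were transduced.

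An intact element of this kind has an internal part with the gag and pol genes, flanked by long terminal repeats (LTRs) that hold its promoter. In the mouse, MERVL is the ERVL internal part and MT2_Mm is its LTR, and both are known for their transcription in the embryo at the two-cell stage. MaLR elements, which include the rodent MT and ORR1 groups and the older MLT1 group, are non-autonomous relatives whose internal parts lack the retroviral genes. In most adult tissues ERVL and MaLR copies are held silent by histone methylation and DNA methylation, and many copies lie inside genes and are carried in introns and untranslated regions. A read count per subfamily sums all copies, so it does not tell an LTR that started a transcript from a copy inside a longer one.

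Most of the reads were in the MaLR groups MT and ORR1. Of the reads on members, 34.0% were in the 20 MT subfamilies, 28.3% in the 25 ORR1 subfamilies and 14.7% in the 56 MLT1 subfamilies. The 7 MERVL and MT2 subfamilies held 11.2%, the 36 other named ERVL subfamilies 7.71%, the 48 numbered LTR subfamilies 2.84% and the 10 MLT2 subfamilies, LTRs of older ERVL elements, 1.12%. One more internal part, MLT-int, held 0.206%. By structure, the 69 internal parts held 15.8% and the 134 terminal repeats 84.2%. The single subfamilies with most reads over all libraries were MTD (1087011), MTC (619531), MT2B (614803) and ORR1D2 (516441). At the other end, HERVL32-int and MLT1K-int had 0 reads in every library. These are shares of reads, not levels per copy or per base, since copy numbers and lengths were not used.

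Series-wide, the libraries held 26934239 to 47648711 gene reads and 7020042 to 13011731 repeat reads. Ribosomal RNA took 22.1% to 59.5% of repeat reads, and was highest in poly(GR) controls 1 and 2 (59.5% and 49.1%, against 22.1% to 29.2% in the other libraries of that cohort). In the poly(PR) cohort it took 40.0% to 46.1% in controls and 34.4% to 43.3% (median 35.3%) in poly(PR) libraries. Markers of neurons, hippocampus and cortex were detected in every group, with no listed gene at 0 reads. In poly(PR) the astrocyte gene Gfap was higher (log2 fold change 1.01, SE 0.15, adjusted p = 0.0430, edgeR), the 1 of 5 astrocyte markers called (0.0579% of all genes). The median of the 5 was 0.01. Aldh1l1 was at 0.18 (SE 0.09) and Slc1a3 at 0.01 (SE 0.08), with Aqp4 at -0.12 (SE 0.13) and Slc1a2 at -0.24 (SE 0.10). In poly(PR) 4 of 6 neuron markers were lower at unadjusted p under 0.05 (edgeR), against 1400 of all 18995 tested genes. After adjustment 0 passed. Among the 4 was Snap25 (-0.27, SE 0.06, adjusted p = 0.113). In poly(GR) 7 of 15 choroid plexus markers were lower and 5 of 12 striatal markers higher at adjusted p under 0.05 (edgeR), against 0.174% of all genes. Summed choroid plexus levels were 224 to 359 CPM against 395 to 703 CPM in controls. Summed striatal levels were 1687 to 1875 CPM against 1339 to 1511 CPM. In poly(PR) 0 markers of these 2 lists passed that threshold, against 0.0579% of all genes. At unadjusted p under 0.05, 9 of 12 striatal markers were higher there, against 1453 of all 18995 tested genes. The striatal sums were 1549 to 2363 CPM against 1336 to 1368 CPM. The part of these markers in the values below was not tested. In these bulk samples fewer cells of a type and less RNA per cell cannot be told apart.

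Measured against other repeats, the share of ERVL and MaLR reads was even. After ribosomal RNA was left out, members took 10.9% to 11.8% of repeat reads in every library, while of all repeat reads they took 4.53% to 8.72%, with the lowest share in poly(GR) control 1, which had the most ribosomal RNA. Scaled to gene reads of the same library, the ERVL total was 5149 ± 192 RPM, that is reads per 1000000 TMM-scaled gene reads (SD, n = 4) in poly(PR) controls and 5112 ± 377 (SD, n = 7) in poly(PR). The ERVL-MaLR total was 17734 ± 902 (SD, n = 4) and 18207 ± 1916 (SD, n = 7). The poly(PR) libraries reached from 16025 to 22037, on both sides of the controls, which lay between 16438 and 18503. In the poly(GR) cohort the ERVL total was 4337 ± 247 (SD, n = 4) in controls and 4137 ± 440 (SD, n = 4) in poly(GR), and the ERVL-MaLR total 13882 ± 682 and 13566 ± 1583. There, too, poly(GR) libraries reached above and below all 4 controls (12004 to 15687 against 12872 to 14366 for ERVL-MaLR). On the log2 scale the treated mean less the control mean was -0.01 for ERVL and 0.03 for ERVL-MaLR in poly(PR), and -0.07 and -0.04 in poly(GR), each smaller than the spread between libraries. These totals were given no test. They were scaled within each cohort, so their levels cannot be compared between cohorts. Scaled over all 19 libraries together, the ERVL total was 4843 to 5305 in poly(PR) controls and 4169 to 4744 in poly(GR) controls.

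**Figure D1:**
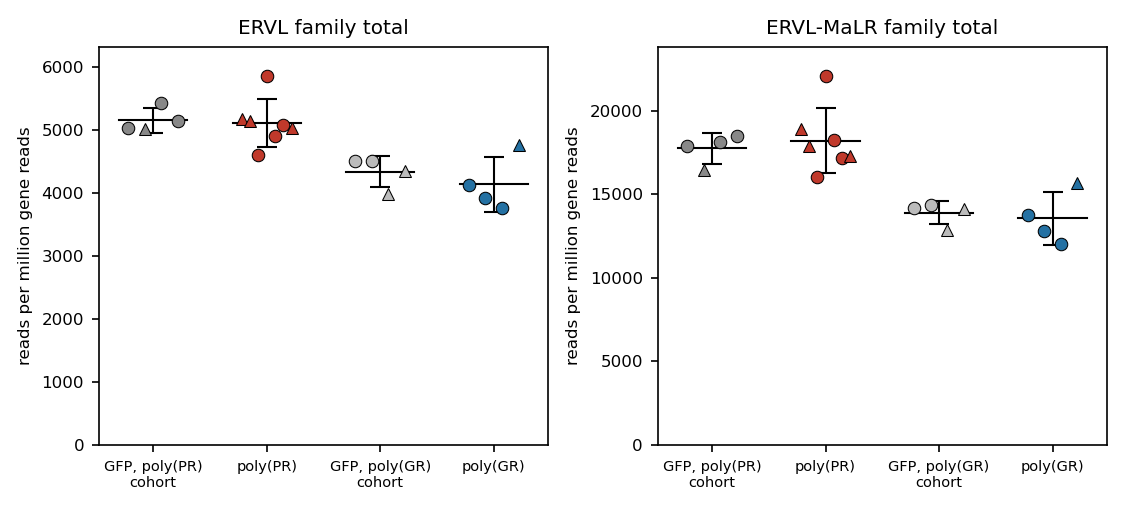
Summed reads of family ERVL (left) and family ERVL-MaLR (right) in RPM for each of the 19 libraries, by group; circles are female and triangles male mice, lines are means and bars SD. The groups of each cohort overlap, and in ERVL-MaLR 1 poly(PR) library at 22037 stands above the other 6. RPM was scaled within each cohort, so the cohorts are not on a common scale.

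The first question was whether reads on these elements differ in brains given poly(PR). No ERVL or MaLR subfamily was called: 0 of 194 tested members had a Benjamini-Hochberg adjusted p under 0.05 (edgeR), against 0% of all 975 tested subfamilies. At an unadjusted p under 0.05 there were 2 members, 1 higher and 1 lower, against 2.87% of all tested subfamilies (0.718% higher, 2.15% lower), and DESeq2 called 0, with 5 members at an unadjusted p under 0.05. In 0 members did all poly(PR) libraries lie beyond all controls (0.103% of all tested subfamilies). The median log2 fold change of members was 0.03, beside 0.02 for all subfamilies, and 119 of 194 lay above 0, against 56.2% of all. That split moved with the scaling: 76.3% of members (75.6% of all) lay above 0 when libraries were scaled by the gene read total without TMM, and 50% of members (48.8% of all) when TMM was taken over the repeats themselves. The 95% interval of the fold change lay within 1.5-fold of no change in either direction for 162 of 194 members, against 80% of all subfamilies, and within 2-fold for 184, against 94.1%.

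The mouse ERVL elements had values close to those of the controls with poly(PR). MERVL-int, one of the annotated internal parts, was at 62.2, 75.1, 82.8 and 60.8 RPM in the 4 controls, and ranged from 48.9 over a median of 60.0 to 77.0 in the 7 poly(PR) libraries. The groups overlapped, with the log2 fold change at -0.22 (SE 0.12, 95% interval -0.48 to 0.04, adjusted p = 0.969, edgeR). With 1 library left out it lay between -0.32 (without poly(PR) replicate 6) and -0.12 (without control 3). MERVL_2A-int, the internal part with more reads, was at 284, 338, 368 and 295 in controls and ranged from 273 over 306 to 335 in poly(PR), a log2 fold change of -0.10 (SE 0.09). MT2_Mm, the LTR of MERVL, was at 54.7, 54.9, 63.0 and 56.2 in controls and from 46.9 over 53.8 to 60.9 in poly(PR), a log2 fold change of -0.08 (SE 0.09). Both ranges overlapped those of the controls. Of the related LTRs, MT2A had a log2 fold change of 0.00 (95% interval -0.16 to 0.16), MT2B of 0.02 (SE 0.07), MT2C_Mm of -0.05 (SE 0.08) and MT2B2 of -0.12 (SE 0.07). In all, 6 of 7 MERVL and MT2 subfamilies lay below 0, with a median of -0.08 and 0 past the threshold. With the gene read total without TMM, MT2A (0.07) and MT2C_Mm (0.02) lay above 0, and with TMM over the repeats MT2B (-0.01) lay below.

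The other ERVL subfamilies held the members with the smallest p values. MLT2B5, an LTR of the MLT2 group, was at 21.9, 27.4, 27.1 and 25.3 RPM in the controls and from 19.04 over 22.3 to 23.8 in poly(PR). Only control 1 lay within the poly(PR) range, and the log2 fold change was -0.24 (SE 0.09, unadjusted p = 0.0179, adjusted p = 0.969, edgeR). LTR67B was at 23.9, 19.1, 19.8 and 23.6 in controls and from 21.9 over 25.2 to 29.1 in poly(PR), with a log2 fold change of 0.24 (SE 0.11, unadjusted p = 0.0362, adjusted p = 0.969). Its groups overlapped in controls 1 and 4. Next by p on the higher side were LTR41B (0.29, SE 0.14) and LTR86A1 (0.46, SE 0.23), and on the lower side LTR80B (-0.29, SE 0.14), LTR86A2 (-0.52, SE 0.27) and LTR16B (-0.46, SE 0.24), none of which passed. When 1 library was left out, LTR86A2 lay between -0.76 (without poly(PR) replicate 6) and -0.23 (without control 3). LTR16B lay between -0.64 (without replicate 6) and -0.18 (without control 3). LTR67B lay between 0.16 (without control 2) and 0.29 (without replicate 6), and LTR86A1 between 0.26 (without replicate 4) and 0.56 (without control 2). RMER15, among the ERVL subfamilies with most reads, had a log2 fold change of 0.08 (SE 0.09). Of the members whose family assignment is marked uncertain, LTR89 was at -0.04 (SE 0.08) and LTR87 at -0.09 (SE 0.11).

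More MaLR subfamilies lay above 0 than below with poly(PR) (69 of 96, against 56.2% of all tested subfamilies), and none passed. Of the MT subfamilies 17 of 20 had log2 fold changes above 0 (median 0.03), of ORR1 20 of 25 (median 0.04) and of MLT1 31 of 50 tested (median 0.03). MTD, the member with most reads, was at 1825, 1702, 1920 and 1816 RPM in controls and from 1600 over 1775 to 2214 in poly(PR). Its groups overlapped, with a log2 fold change of 0.02 (95% interval -0.16 to 0.20). It was -0.01 with TMM over the repeats and -0.05 without poly(PR) replicate 4. MTC (0.03, SE 0.09), MTA_Mm (0.04, SE 0.08) and MTA_Mm-int (0.04, SE 0.08) had values of the same size. Without replicate 4 they were at -0.04, -0.01 and 0.01. ORR1D2 was the MaLR subfamily with the smallest p on the higher side, at 930, 696, 755 and 1101 in controls and from 751 over 883 to 1347 in poly(PR). Its log2 fold change was 0.28 (SE 0.16, adjusted p = 0.969), and low and high values occurred in both groups. ORR1D2-int, its internal part, was at -0.14 (SE 0.08); it was chosen after its values were seen.

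Single libraries set much of the spread among members in this cohort. Poly(PR) replicate 4 was the highest of the 11 libraries in 115 of 194 members (59.3%, against 51.4% of all tested subfamilies). Poly(PR) replicate 3 was the lowest in 89 (45.9%, against 36.8%). The share of reads on no gene was 13.4% in replicate 4 and 9.30% in replicate 3, the highest and lowest of this cohort. Without replicate 4 the median log2 fold change of members was -0.03 and 35.1% lay above 0, without control 2 it was -0.01, and 0 members were called without any library of the cohort. Without replicate 6, 14 of 194 members had an unadjusted p under 0.05 (edgeR), against 2 with all 11 libraries. The share of all subfamilies at that threshold is not given for that fit.

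**Figure D2:**
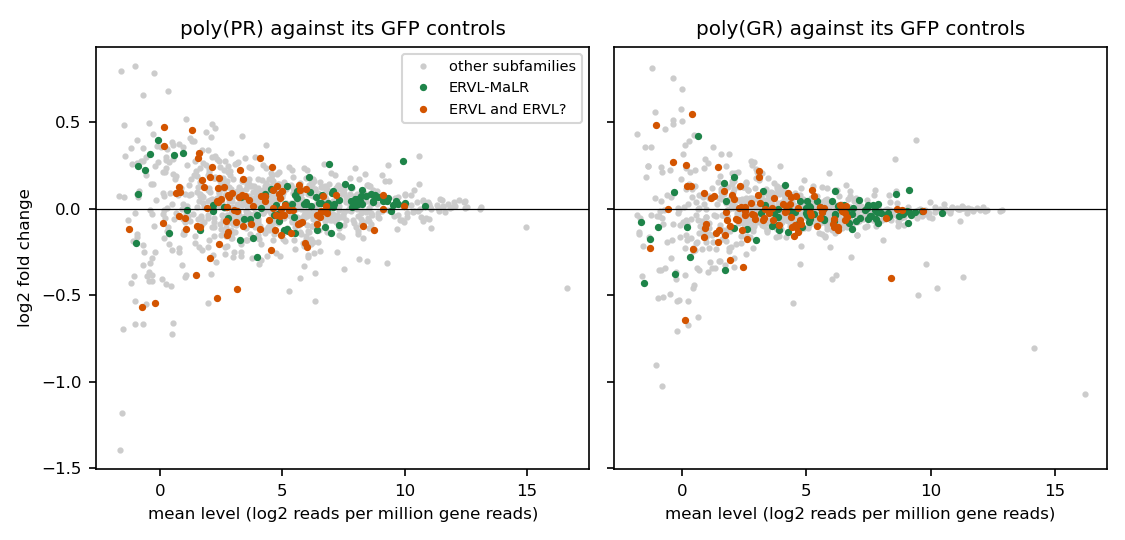
Log2 fold change against mean level (log2 RPM) for every tested repeat subfamily, in poly(PR) (left) and poly(GR) (right) against the GFP controls of each; green points are ERVL-MaLR, orange points ERVL and ERVL?, grey points all other subfamilies. Members lie around 0 at all levels, with medians of 0.03 and -0.02, and none passed an adjusted p of 0.05.

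The next question was whether they differ in brains given poly(GR). Here, too, no member was called: 0 of 192 tested had an adjusted p under 0.05 (edgeR), against 0% of all 955 tested subfamilies. At an unadjusted p under 0.05 there was 1 member, MT2B2, on the lower side, against 2.09% of all subfamilies (1.68% lower), and DESeq2 called 0, with 1 member at an unadjusted p under 0.05. The median log2 fold change of members was -0.02, as it was for all subfamilies, and 68 of 192 lay above 0, against 39.6% of all. With the gene read total without TMM 54.7% of members (56.8% of all) lay above 0, and with TMM over the repeats 48.7% (53.1% of all). For 162 of 192 members the 95% interval lay within 1.5-fold of no change, against 80.2% of all, and for 182 within 2-fold, against 93.5%. The groups did not overlap in 1 member, against 0.942% of all subfamilies: in 1 all poly(GR) libraries lay below all controls (0.733% of all) and in 0 above (0.209%). This was LTR50, named after its values were seen, at 43.4 to 44.7 in controls and 38.4 to 42.3 in poly(GR), with a log2 fold change of -0.10 (SE 0.09).

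Among the mouse ERVL elements, MT2B2, an LTR of the MT2 group, had the smallest p of all members in poly(GR). It was at 524, 429, 285 and 301 RPM in controls 1 to 4, and at 285, 282, 287 and 335 in the poly(GR) libraries. Controls 1 and 2 were high, while controls 3 and 4 lay within the poly(GR) range. The log2 fold change was -0.40 (SE 0.14, 95% interval -0.69 to -0.10, unadjusted p = 0.0110, adjusted p = 1.00, edgeR). Without poly(GR) replicate 4, the only male of its group, it was -0.74 (SE 0.09) with adjusted p = 3.21e-07, a fit in which the sex term sets the 3 female poly(GR) libraries against controls 1 and 2, those with the most ribosomal RNA. Without control 1 it was -0.22. With ribosomal RNA reads as a further covariate, chosen after seeing the data, it was -0.01 (SE 0.10). MERVL-int was at 77.4, 76.6, 61.8 and 69.0 in controls and 65.7, 62.5, 61.7 and 82.3 in poly(GR), a log2 fold change of -0.06 (SE 0.11). MERVL_2A-int (-0.05, SE 0.10), MT2_Mm (-0.06, SE 0.11), MT2A (-0.01, SE 0.09), MT2B (-0.01, SE 0.09) and MT2C_Mm (-0.10, SE 0.11) were likewise within their error of 0. All 7 tested MERVL and MT2 subfamilies lay below 0 (median -0.06), and the direction of MT2A and MT2B turned with either other scaling.

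The remaining ERVL and MaLR subfamilies gave no call with poly(GR). On the higher side the smallest p values were those of LTR69 (0.55, SE 0.28), MLT1J2-int (0.42, SE 0.24), LTR75 (0.22, SE 0.13) and LTR32 (0.18, SE 0.14). On the lower side, after MT2B2, they were those of LTR84b (-0.34, SE 0.17), MER21-int (-0.64, SE 0.35) and LTR52 (-0.29, SE 0.17). LTR69 and MER21-int are thinly covered, with 974 and 849 reads over all libraries. When 1 library was left out, LTR84b lay between -0.61 (without poly(GR) replicate 4) and -0.22 (without control 1), and MER21-int between -1.04 (without replicate 1) and -0.45 (without replicate 3). LTR52 lay between -0.49 (without replicate 4) and -0.19 (without control 2), LTR32 between 0.11 (without control 2) and 0.37 (without replicate 4), and LTR75 between 0.14 (without control 2) and 0.36 (without control 1). Of the MT subfamilies 6 of 20 lay above 0, of ORR1 8 of 25 and of MLT1 15 of 49 tested. MTD was at 1460, 1487, 1305 and 1439 in controls and at 1398, 1267, 1201 and 1660 in poly(GR). The poly(GR) values lay on both sides of the controls, with a log2 fold change of -0.02 (SE 0.10). MTC (-0.01, SE 0.10), MTA_Mm (-0.03, SE 0.10), MTA_Mm-int (-0.01, SE 0.10), RMER15 (0.00, SE 0.10), LTR87 (0.00, SE 0.12), LTR89 (-0.16, SE 0.10) and ORR1D2 (0.11, SE 0.09) did not pass either.

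Here too single libraries stood at the ends of the range. Poly(GR) replicate 4 was the highest of the 8 libraries in 132 of 192 members (68.8%, against 60.8% of all subfamilies) and poly(GR) replicate 3 the lowest in 113 (58.9%, against 53.7%). Without replicate 4 the median of members was -0.19 (-0.16 over all subfamilies) and 1 member, MT2B2, was called, 0.521% against 1.88% of all. In that fit 59 of 192 members had an unadjusted p under 0.05 (edgeR), against 1 with all 8 libraries. The share of all subfamilies at that threshold is not given for it. Without control 1, control 2 or replicate 3 the median was 0.01, 0.02 and 0.02. Gene tables of 2 layouts were deposited in this cohort. Within the 3 libraries with 4-column tables (control 2 and poly(GR) replicates 2 and 3, no sex term) 6 members passed on the lower side, LTR82B, MLT1J1, MLT2B3, MT2B2, MTEa-int and RMER10B, 3.09% of members against 3.51% of all. That fit sets 1 control against 2 libraries, so the spread between controls was not measured in it, and the control had 49.1% of its repeat reads in ribosomal RNA. Within the 5 libraries with 2-column layouts no member was called, with 1 at an unadjusted p under 0.05 and a median of 0.10.

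**Figure D3:**
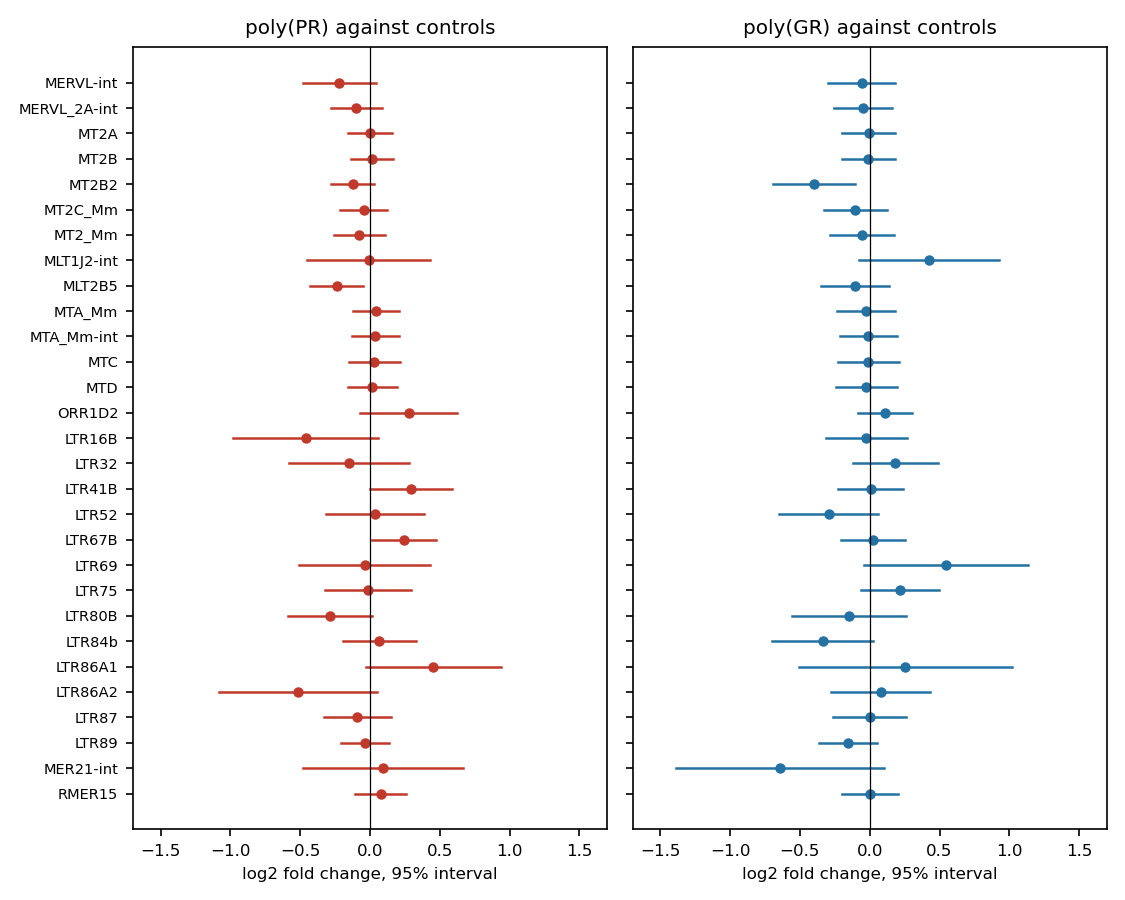
Log2 fold change with its 95% interval for the members named by rule, in poly(PR) (left, red) and poly(GR) (right, blue) against the controls of each. Most intervals cover 0; MLT2B5 and LTR67B in poly(PR) and MT2B2 in poly(GR) do not, at unadjusted p values of 0.0179, 0.0362 and 0.0110.

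The difference between the effects of poly(PR) and poly(GR) was tested over all 19 libraries. It was called in 0 of 194 members and 0% of all 982 subfamilies by edgeR's quasi-likelihood test, with 0 members at an unadjusted p under 0.05 (0.916% of all, 0.509% higher and 0.407% lower). The median difference was 0.05 for members and for all subfamilies. For MT2B2 the difference was 0.28 (SE 0.17) and for MERVL-int -0.16 (SE 0.18). The intervals were wider than within a cohort, and lay within 1.5-fold for 133 of 194 members, against 62.7% of all, and within 2-fold for 171, against 84.5%.

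**Figure D4:**
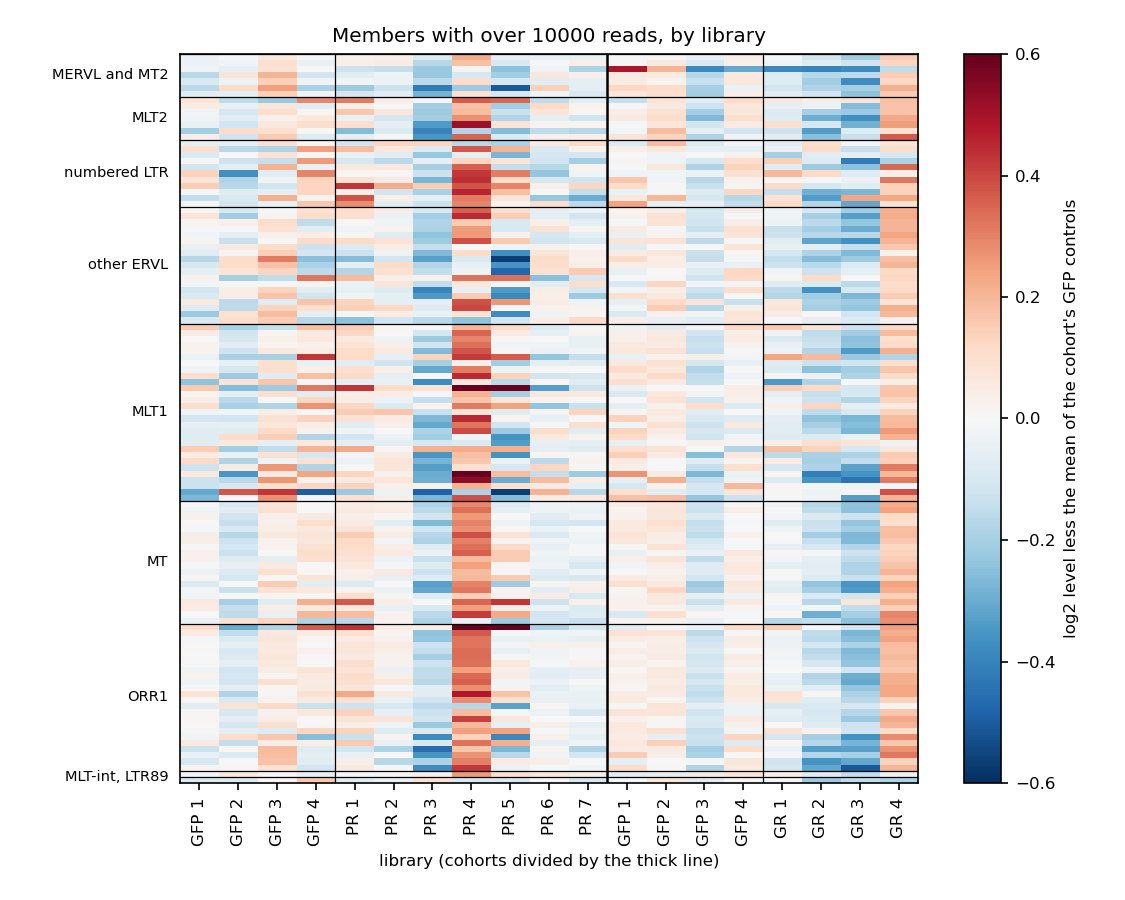
Log2 level of the 119 members with over 10000 reads in each library, less the mean of the GFP controls of its cohort, with members grouped by subfamily group from top to bottom and libraries from left to right. Red is above and blue below the controls. Most of a column is often of one colour, as in PR 4 and GR 4 (red) and PR 3 and GR 3 (blue), and the row of MT2B2 is red in the first poly(GR) control.

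Some members varied with measures of the library, within groups and sexes. These fits were chosen after seeing the data. Over all 19 libraries 1 member, MT2B2, was called on ribosomal RNA reads: it rose by 0.38 on the log2 scale (SE 0.05) per doubling, with adjusted p = 5.74e-05 (edgeR, 19 libraries), 1 of 194 members against 0.407% of all subfamilies. The median slope of members was 0.12, beside 0.11 for all subfamilies. The adjusted p lay between 1.32e-05 and 0.0118 when any 1 library was left out. Within the poly(GR) cohort the slope was 0.38 (adjusted p = 8.09e-05), and MLT1C-int was called as well (0.48, SE 0.13, adjusted p = 0.0470). The share of all subfamilies called in that fit is not given here, so these calls cannot be set against it. Within the poly(PR) cohort the slope of MT2B2 was 0.40 (SE 0.22, adjusted p = 0.614). The other subfamilies called over all 19 libraries were the LINE subfamily L1Md_T and the ribosomal RNA entries SSU-rRNA_Hsa and LSU-rRNA_Hsa. The reads of these ribosomal entries are part of the measure itself, so their calls are no result. The 0.407% of all subfamilies includes them.

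ORR1D2 moved with the mitochondrial share of gene reads, by 0.32 on the log2 scale (SE 0.04) per percentage point (adjusted p = 6.63e-05, edgeR). That share ran from 3.72% to 6.34% in the poly(PR) cohort and from 4.15% to 4.76% in the poly(GR) cohort, where the slope was 0.16 (SE 0.26, adjusted p = 0.872). Within the poly(PR) cohort 35 of 194 members were called, 23 upward and 12 downward. The share of all subfamilies is not given for that fit. Besides ORR1D2, other members named above for poly(PR) were among those 35. Upward these were LTR41B (0.21, SE 0.06) and MTA_Mm-int (0.10, SE 0.03). Downward they were MERVL-int (-0.17, SE 0.05), LTR86A2 (-0.47, SE 0.10), LTR16B (-0.41, SE 0.10) and ORR1D2-int (-0.10, SE 0.04). Over all 19 libraries, 31 of 194 members were called on this measure, 22 upward and 9 downward, against 23.1% of all subfamilies (17.5% upward, 5.6% downward). Between 18 and 38 members were called when 1 library was left out, with the share of all subfamilies not given for those refits. With the mitochondrial share as a covariate the poly(PR) log2 fold change of ORR1D2 was 0.17 (SE 0.08). Reads on no gene, given in 14 libraries (11 of the poly(PR) cohort and 3 of the poly(GR) cohort), moved with more members. There 77 of 197 were called upward and 0 downward, against 32.2% of all subfamilies (32% upward, 0.199% downward). Repeat reads that lie on no gene may be part of this measure, so an upward slope may be built in. How many there were was not measured. Of the ERVL-MaLR subfamilies 52 of 98 were called, and of ERVL 25 of 97. The count of members rested on 2 libraries, and was 15 without poly(PR) replicate 4 and 32 without replicate 3. For these refits, too, the share of all subfamilies is not given.

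**Figure D5:**
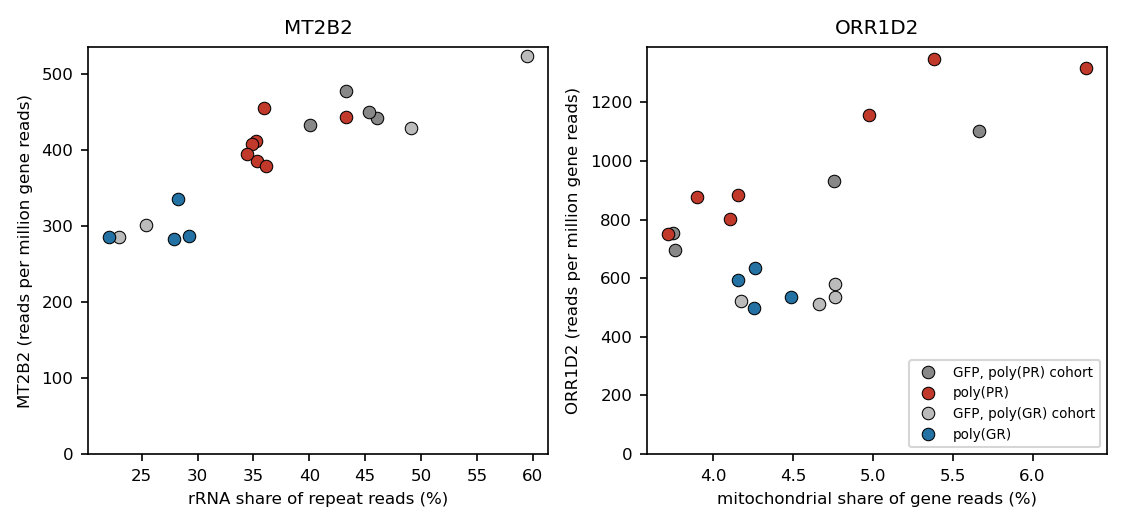
Left, MT2B2 RPM against the ribosomal RNA share of repeat reads (%), and right, ORR1D2 against the mitochondrial share of gene reads (%), 1 point for each of the 19 libraries, coloured by group. MT2B2 is at 524 and 429 in the 2 poly(GR) controls with ribosomal shares of 59.5% and 49.1%, and ORR1D2 is highest (1347 and 1316) in poly(PR) libraries with mitochondrial shares of 5.38% and 6.34%. RPM was scaled within each cohort, so the cohorts are not on a common scale.

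Genes that silence these elements did not differ past the threshold either. Of 39 listed silencing genes, 38 were tested and 0 passed in edgeR with poly(PR) (0.0579% of all genes) or with poly(GR) (0.174%). At an unadjusted p under 0.05 there were 2 with poly(PR), L3mbtl2 (log2 fold change 0.20, SE 0.06) and Chaf1b (0.76, SE 0.28, at most 1.10 CPM in this cohort), against 15% of all genes. With poly(GR) there were 4, against 11.5%. Trim28, the KAP1 corepressor that brings histone methylation to retroviral copies, was at 0.15 (SE 0.06), and Mphosph8, a subunit of the HUSH silencing complex, at -0.15 (SE 0.06). The Polycomb genes Ring1 and Rnf2 were at 0.16 (SE 0.07) and -0.15 (SE 0.07). Setdb1, the histone methyltransferase that acts with Trim28, was at 0.07 (SE 0.08) in poly(PR) and 0.06 (SE 0.06) in poly(GR), and Kdm1a, a histone demethylase that restrains MERVL in mouse embryonic stem cells, at -0.04 (SE 0.05) and 0.02 (SE 0.06). Cbx5, which encodes the heterochromatin protein HP1α, was at -0.21 (SE 0.15) and -0.08 (SE 0.06). Of 13 matched genes of the two-cell stage programme, 8 were at 0 reads in each group, though not the same 8 in all groups. Only Nelfa was tested (0.06, SE 0.09, and 0.10, SE 0.06). Fv1, a restriction gene derived from an ERVL gag sequence, was at -0.55 (SE 0.34, adjusted p = 0.415) in poly(PR) and -0.09 (SE 0.11, adjusted p = 0.82) in poly(GR).

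The GFP controls of the harvests were also set against each other, a comparison chosen after its values were seen. In the fit over all 19 libraries, 21 of 194 members were higher in the poly(PR) controls than in the poly(GR) controls at an adjusted p under 0.05 (edgeR) and 0 were lower, 10.8% of members against 24.3% of all subfamilies. The median log2 difference was 0.21 for members and 0.25 for all subfamilies. ORR1D2 was among those called, at 0.55 (SE 0.16), as were RMER15 (0.30, SE 0.10), MTE-int (0.28, SE 0.09) and LTR16D2 (0.75, SE 0.18). The harvest and everything processed with it cannot be told apart.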

How the data were processed

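Reads were counted by the authors per gene and per repeat subfamily in each of 19 libraries, and the deposited values are whole-number counts that were not normalized. The kit named in the labels' protocols is for stranded sequencing of total RNA, but the molecule is labelled polyA. Per the submitters' processing notes, the tools were Trimmomatic 0.36 and STAR 2.5.2b, and 2 builds, mm9 and mm10, are named without a role. Which annotation and tool gave the repeat counts, and how reads with several positions were treated, is not given in the sources used here.

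Repeat counts were fitted with edgeR 4.0.16 (R 4.3.3) by the quasi-likelihood test over all subfamilies, after filterByExpr, with the library size set to the TMM-scaled gene reads of the library, sex as covariate, and p-values adjusted by Benjamini-Hochberg over all tested (threshold 0.05). The 2 cohorts were fitted separately, and the difference of effects over all 19 libraries. The 9 untested members of the poly(PR) cohort and 11 of the poly(GR) cohort had at most 17 reads in any library. Levels (RPM) are reads per 1000000 of those scaled gene reads. TMM for these levels was computed within each cohort, so RPM values of the 2 cohorts are not on a common scale. Depth limits precision for thinly covered members (26934239 to 47648711 gene reads per library). Genes were fitted in the same way with TMM. DESeq2 1.42.0 was an alternative, with other scalings, filters, covariates and left-out libraries. The scripts were tested on simulated data.

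Groups and sex come from the labels, and the series' design text counts the samples as mice. Replicate numbers are in accession order. Between libraries of one group, chi-square over its degrees of freedom was at least 3.33 over members with at least 20 reads in the pair, so none was counted as a duplicate. Members, lists and tests were chosen with earlier results of these data known. Named members are those called, the 4 per direction and cohort with the smallest unadjusted p, all tested MERVL and MT2 subfamilies, MTA_Mm and MTA_Mm-int, and the 3 per family with most reads. Named genes are those called and Trim28, Setdb1, Kdm1a, Cbx5, Dux and Fv1. Other genes were picked for naming with their values in view. The ribosomal and mitochondrial covariates and slopes, the left-out libraries for the difference of effects, and the alternatives for totals and gene lists were chosen after seeing the data. Dux was not analysed here.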

Additional observations from a re-analysis of the deposited data

Results flagged for a closer look

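In 124 groups of named members and totals examined, 10 held 1 library far from the others of its group, and chance flags about 1 in 20 groups (5%). Values are RPM, reads per 1000000 scaled gene reads. Poly(PR) replicate 4 stood above the other 6 poly(PR) libraries in MT2B (1157 against 937 to 1013), MTC (1292 against 918 to 1066), RMER15 (687 against 502 to 575) and LTR86A1 (4.42 against 1.88 to 2.89). This is the library with the highest share of reads on no gene, 13.4%, whose part in these values was not tested. Poly(PR) replicate 5 was low in LTR84b (5.35 against 6.80 to 7.71). Poly(PR) control 3 was high in MT2A (596 against 540 to 549) and in LTR84b (6.85 against 6.57 to 6.60). In the poly(GR) cohort, poly(GR) replicate 4 was high in MT2B2 (335 against 282 to 287). Control 3 was low in MERVL_2A-int (264 against 308 to 310) and in the ERVL-MaLR total (12872 against 14122 to 14366).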

How the results depend on the processing

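The count of called members was 0 under the alternatives run in each comparison, except in poly(GR), where 6 were called within the 4-column gene layouts and between 0 and 1 when 1 library was left out (1 without poly(GR) replicate 4). MT2B2 was at -0.59 in the first and -0.74 in the second, and at -0.22 without control 1. These are not independent: the first has 1 control, control 2, taken to have the spread of the poly(GR) libraries, and the second rests on controls 1 and 2. Pathway genes called were 0 under each of their alternatives, and the family totals moved by less than 1 SD. Without poly(PR) replicate 6, 632 of all genes were called in that cohort (edgeR), against 11 with all its libraries. Of the 44 log2 fold changes of named members, none past the threshold, 27 turned sign under at least 1 alternative, in 114 of 836 refits, and the cause was not tested. The covariate fits were chosen after seeing the data. The values that turned follow. Within the 2-column gene layouts these were in poly(GR) MERVL_2A-int (0.0591), MERVL-int (0.0986), MT2_Mm (0.0855), MT2A (0.0816), MT2B (0.0969), MT2C_Mm (0.0427), MTA_Mm (0.11), MTA_Mm-int (0.0982), MTD (0.14), MTC (0.16) and LTR87 (0.10). Within the 4-column layouts these were in poly(GR) RMER15 (-0.19) and ORR1D2 (-0.0492). With DESeq2 these were in poly(GR) RMER15 (-0.00105). With TMM over the repeats these were in poly(PR) MT2B (-0.00932) and MTD (-0.00971), and in poly(GR) MT2A (0.0187), MT2B (0.0147), MTA_Mm-int (0.0163), MTD (0.0011), MTC (0.0141) and LTR87 (0.0185). With all 19 libraries in one fit these were in poly(PR) MT2B (-0.000141), and in poly(GR) RMER15 (-0.028). With the gene read total without TMM these were in poly(PR) MT2A (0.0684), MT2C_Mm (0.0232) and LTR89 (0.0339), and in poly(GR) MT2A (0.022), MT2B (0.0202), MTA_Mm (0.0023), MTA_Mm-int (0.0205), MTD (0.00789), MTC (0.0209) and LTR87 (0.029). With table layout as a covariate these were in poly(GR) LTR87 (0.00749). With the mitochondrial share as a covariate these were in poly(GR) MERVL_2A-int (0.0724), MERVL-int (0.071), MT2_Mm (0.0995), MT2A (0.0701), MT2B (0.0421), MT2C_Mm (0.00784), MTA_Mm (0.0648), MTA_Mm-int (0.11), MTD (0.0701), MTC (0.0939) and LTR87 (0.0561). Without the sex term these were in poly(PR) MT2A (0.00491), and in poly(GR) RMER15 (-0.021). With ribosomal RNA reads as a covariate these were in poly(PR) LTR16B (0.00588), MERVL_2A-int (0.0339), MERVL-int (0.0682), MT2_Mm (0.0842), MT2A (0.13), MT2B2 (0.0293), MT2C_Mm (0.0371) and LTR87 (0.15), and in poly(GR) LTR32 (-0.035), MERVL_2A-int (0.10), MERVL-int (0.18), MT2_Mm (0.12), MT2A (0.0874), MT2B (0.0759), MT2C_Mm (0.0438), MTA_Mm (0.13), MTA_Mm-int (0.12), MTD (0.14), MTC (0.15) and LTR87 (0.17). When 1 library was left out, the ranges of values that turned were, in poly(PR), MT2A (-0.0419 to 0.0339), MT2B (-0.0311 to 0.0351), MT2C_Mm (-0.0795 to 0.0018), MTA_Mm (-0.00856 to 0.0792), MTD (-0.0455 to 0.0597), MTC (-0.0396 to 0.0722) and LTR89 (-0.0686 to 0.0147), and in poly(GR), MERVL-int (-0.28 to 0.0104), MT2_Mm (-0.22 to 0.00122), MT2A (-0.10 to 0.0317), MT2B (-0.11 to 0.0292), MTA_Mm (-0.18 to 0.0198), MTA_Mm-int (-0.13 to 0.0356), RMER15 (-0.13 to 0.0464), MTD (-0.19 to 0.0328), MTC (-0.18 to 0.0511) and LTR87 (-0.17 to 0.0667). With ribosomal RNA reads as a covariate the median of members was 0.19 in poly(PR) (0.15 over all subfamilies) and 0.12 in poly(GR) (0.11). In that fit 88.7% of members lay above 0 in poly(PR) (83.8% of all) and 86.5% in poly(GR) (84.0%). The median ribosomal share of repeat reads was 35.3% in poly(PR) libraries and 44.3% in their controls. Treatment and ribosomal RNA therefore cannot be fully told apart in that cohort. Depth limits members with up to 10000 reads, whose median SE was 0.18 in poly(PR) and 0.19 in poly(GR), against 0.09 and 0.10 for those with more. No paired analysis was possible because the replicate numbers only follow accession order.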
